A study of Homo sapiens with 16 samples.

Results

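The WNT pathway genes described here are 51 genes fixed by symbol, found by matching each symbol to the Ensembl identifiers of the deposited count table. All 51 of 51 had an entry among the 60676 genes of the table. They were treated as 3 subsets: 18 WNT ligands, 12 receptors of the Frizzled (FZD) and LRP families, and 21 target genes and other pathway components. WNT proteins are secreted lipid-modified ligands that bind a Frizzled receptor together with LRP5 or LRP6. Binding stops the destruction complex of APC, AXIN1 and its partners from degrading β-catenin, the product of CTNNB1, which then acts with TCF and LEF factors on target genes. In the gut this pathway maintains stem cells, and most colorectal cancers carry a mutation that activates it, in HCT116 cells one in CTNNB1 itself.

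The study measured poly(A) RNA of HCT116, an established human colorectal carcinoma line, as RNA-seq counts; the 16 libraries form 8 groups of 2. Each group combined an shRNA, either the control shCTL or shNELFE, with 1 of 4 treatments: DMSO alone, EPZ-5676, HMBA, or EPZ-5676 with HMBA. NELFE is a subunit of the negative elongation factor, which holds RNA polymerase II at promoters; EPZ-5676 inhibits the histone H3K79 methyltransferase DOT1L; HMBA (hexamethylene bisacetamide) is a differentiating agent that releases the elongation kinase P-TEFb from its inhibitor HEXIM1. Doses, times and how many shRNA sequences or cell pools were used are not in the labels. The labels do not say whether the libraries of a group are separate cultures, and the p-values here reflect no more than the spread among these libraries, possibly technical.

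Deposited totals were 13428893 to 21319666 counts per library, so that the limit of 3 counts was 0.141 to 0.223 CPM, the usual measure of counts relative to a library's total. Of the 16 libraries, 7 of the 8 numbered 1 stood apart: their log2 CPM profiles correlated with those of the other 9 at r = 0.735 to 0.805, while the 9 correlated among themselves at 0.936 to 0.991. The targeted gene went against the labels in those 7. NELFE stood at 81.6 to 269 CPM in them, the 3 labelled shNELFE included, against 12.4 to 79.3 in the 9 on the same scaling. The results therefore rest on the 9 libraries, which are the 8 numbered 2 and number 1 of shNELFE with both compounds, and values in all 16 stand beside them. In the 9, NELFE was lower with shNELFE (log2 fold change -2.10 ± 0.11, SE, edgeR adjusted p = 2.2e-05). NELFE levels were among the grounds for using the 9, so this is no separate check of that choice. HEXIM1, named for its induction by HMBA, rose with HMBA from 73.4 ± 7.40 (SD, n = 4) to 369 ± 18.5 CPM (SD, n = 5). Of 10 colon epithelial markers, EPCAM was at 315 ± 15.4 CPM (SD, n = 4) without HMBA and 389 ± 131 (SD, n = 5) with it, whereas CDX1, VIL1 and LGALS4 averaged at most 0.113 CPM in either arm.

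Each effect was fitted with edgeR's quasi-likelihood test on the whole table, as HMBA against no HMBA, shNELFE against shCTL and EPZ-5676 against none, with the other factors as terms. A single group has both of its libraries among the 9. The fitted error therefore rests mostly on departures from additive effects across groups, and little on replicate libraries. Of the 51 members, 37 passed the filter on low counts and were tested: 11 of 18 ligands, 10 of 12 receptors and 16 of 21 targets and other components. The other 14 were WNT1, WNT2, WNT5A, WNT5B, WNT6, WNT8B, WNT9B, FZD8, FZD10, LGR5, LEF1, ASCL2, SP5 and DKK4, and none of them exceeded 1.04 CPM in any of the 9 libraries. Of these, 6 (WNT1, WNT8B, FZD8, FZD10, ASCL2 and DKK4) had no count in the 9, which allows up to the limit given above. LGR5, ASCL2 and LEF1, markers or factors of WNT-driven gut stem cells, were thus at or near the detection limit. In bulk RNA, fewer cells of a type and less RNA per cell cannot be told apart.

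Most changes in WNT genes were seen with HMBA. Of 37 members tested, 26 passed an adjusted p of 0.05, or 70.3%, with 13 higher and 13 lower; over all 14912 genes tested, 63% were called, 31% higher and 32% lower. That share of members is near the background and is not a result about the pathway. The median absolute log2 fold change was larger, at 1.02 over the members and 0.52 over all genes. Of the 37 tested, 9 were called at least 2-fold higher and 10 at least 2-fold lower, against 11.4% and 13.6% of all genes. For shNELFE those medians were 0.23 and 0.165, and for EPZ-5676 0.127 and 0.125. Members were not compared with genes of like level, so the larger median is not read as a result about the pathway. On unscaled totals the median of all genes moved from 0.02 to -0.24, with 2785 genes higher and 6448 lower in place of 4626 and 4766, and all 26 members kept their sign. Each of the 26 moved in its direction in 4 of 4 pairs of libraries numbered 2 that differ in HMBA alone. These pairs come from the libraries that gave the calls and are no separate support. How many of all genes did so was not counted. Ligands split into 4 higher and 4 lower, receptors into 5 higher and 2 lower, and targets and other components into 4 higher and 7 lower.

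**Figure D1:**
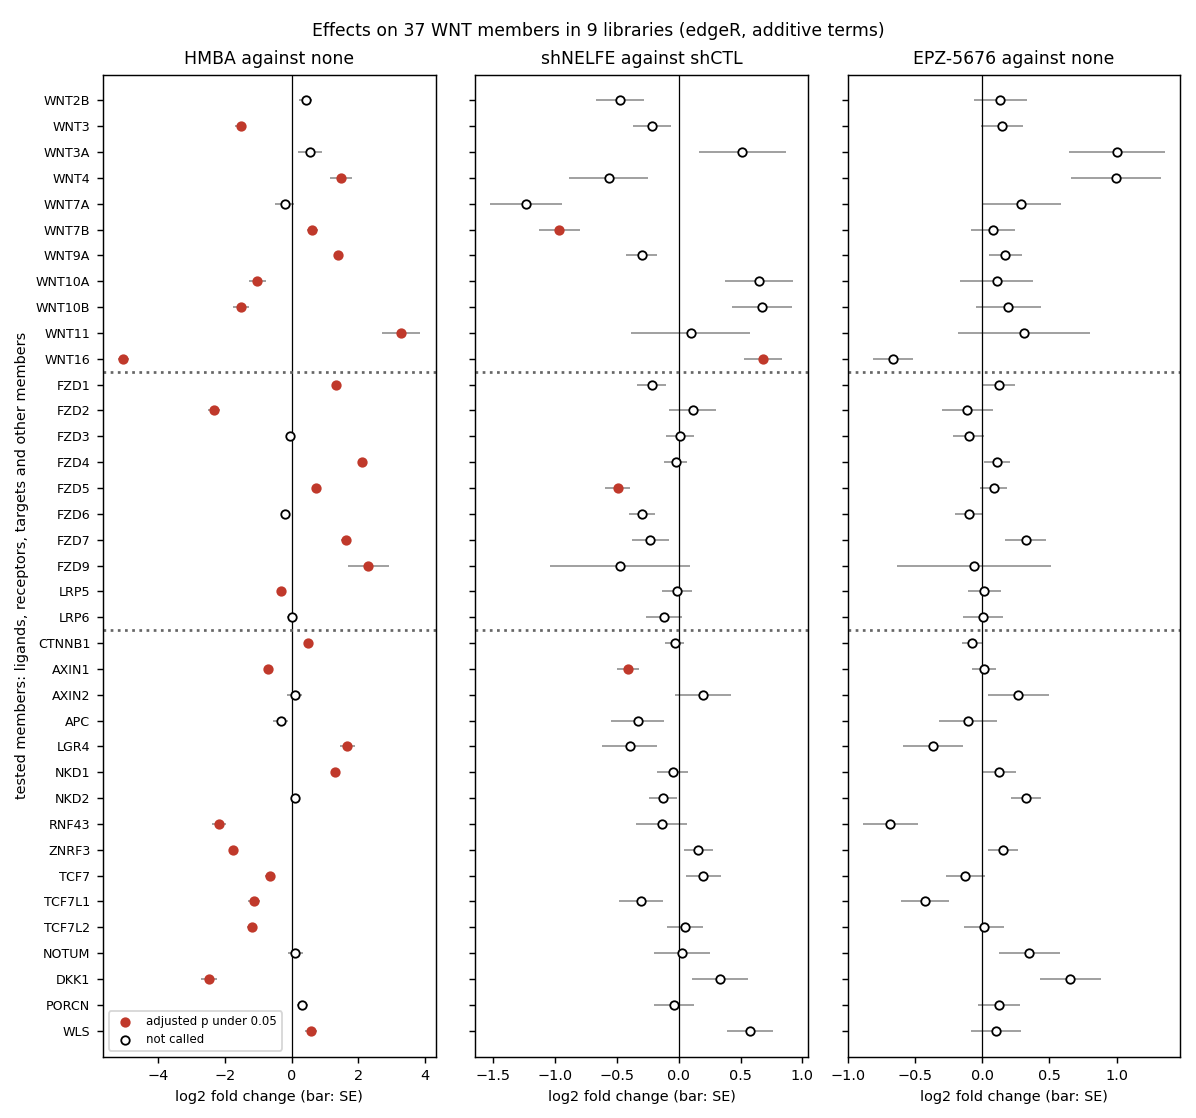
Fitted log2 fold changes (x axis) of the 37 tested WNT members (y axis, in 3 subsets split by dotted lines) for HMBA, shNELFE and EPZ-5676 in 9 libraries. Bars are standard errors, filled points passed an adjusted p of 0.05; HMBA has 26 filled points, shNELFE 4 and EPZ-5676 none.

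In the values that follow, libraries without HMBA come in the order shCTL DMSO, shNELFE DMSO, shCTL EPZ-5676, shNELFE EPZ-5676. Those with HMBA come as shCTL HMBA, shNELFE HMBA, shCTL with both compounds, then numbers 1 and 2 of shNELFE with both. Levels are CPM on TMM-scaled totals, folds are fitted, and each mean ± SD spans libraries that also differ in the other factors. How many of all genes had arms without overlap was not counted, so a lack of overlap is not read as particular to these members. Positions are on hg38, from GENCODE release 29.

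Among ligands the largest change was in WNT16 (ENSG00000002745, chr7:121325367-121341104), a WNT known for roles in bone and skin. It read 107, 168, 67.3 and 109.6 CPM without HMBA and 3.54, 4.90, 1.73, 4.49 and 2.22 with it. The lowest library without HMBA stood far above the highest with it. The means were 113 ± 41.3 (SD, n = 4) and 3.38 ± 1.38 (SD, n = 5), a log2 fold change of -5.05 ± 0.16 (SE, adjusted p = 6.3e-09), or 33.1-fold lower. The promoter of WNT16 is shown because this gene fell most, and those of WNT3 and DKK1 because they also fell and hold TCF/LEF letters. The sequences are RefSeq's (GRCh38.p14), 5′ to 3′ on the gene's strand, from 250 bases before RefSeq's start to 50 after it, which is not the outermost start in GENCODE for WNT16 and WNT3. They lie at chr7:121328750-121329049 (plus strand), chr17:46818643-46818942 (minus strand) and chr10:52314031-52314330 (plus strand).
WNT16: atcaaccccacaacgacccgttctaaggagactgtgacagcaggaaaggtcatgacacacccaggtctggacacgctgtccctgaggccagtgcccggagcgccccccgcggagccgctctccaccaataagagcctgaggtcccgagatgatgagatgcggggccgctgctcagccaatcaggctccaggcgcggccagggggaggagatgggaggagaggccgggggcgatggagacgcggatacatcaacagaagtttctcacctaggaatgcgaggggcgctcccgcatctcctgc
WNT3: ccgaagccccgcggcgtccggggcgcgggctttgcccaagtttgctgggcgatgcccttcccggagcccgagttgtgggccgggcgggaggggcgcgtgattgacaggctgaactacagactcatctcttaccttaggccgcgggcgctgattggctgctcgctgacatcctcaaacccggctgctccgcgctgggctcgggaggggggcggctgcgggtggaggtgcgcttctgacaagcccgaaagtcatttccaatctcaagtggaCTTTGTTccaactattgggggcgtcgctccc
DKK1: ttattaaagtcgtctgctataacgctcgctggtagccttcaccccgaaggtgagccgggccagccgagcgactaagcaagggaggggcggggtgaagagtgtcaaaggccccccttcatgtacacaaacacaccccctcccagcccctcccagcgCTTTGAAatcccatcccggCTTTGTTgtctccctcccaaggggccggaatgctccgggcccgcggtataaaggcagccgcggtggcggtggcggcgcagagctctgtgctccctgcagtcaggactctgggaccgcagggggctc
Capitals mark matches, on either strand, to 4 forms of the TCF/LEF site, of which CTTTGAA is the first form, CTTTGAT the second form, CTTTGTA the third form and CTTTGTT the last form. DKK1 held 2, starting 95 and 76 bases before the start, WNT3 held 1, starting 19 bases after it, and WNT16 held none. Of the 35 members with a RefSeq promoter entry, 3 held a match (WNT3, SP5 and DKK1), against 13.8% of 34796 promoters of the same length. Matches stood in 2 of 10 promoters of members lower with HMBA and in 0 of 9 of those higher. The E-box CACGTG and the AP-1 site TGACTCA (read as TGAGTCA on the opposite strand), neither of which shares its letters with the TCF/LEF forms, occurred in 0 of the 35, against 7.2% and 4.96% of all promoters. These are descriptions of letters, and no match says only that the letters are not in this window.

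WNT3, WNT10A and WNT10B, ligands that signal through β-catenin, also fell. WNT3 (chr17:46762506-46833154) read 5.98, 4.63, 6.29 and 6.32 CPM without HMBA and 2.29, 1.77, 2.11, 1.87 and 1.92 with it, with no overlap and a log2 fold change of -1.53 ± 0.15 (SE, adjusted p = 8.5e-06). For WNT10B the values were 4.05, 7.998, 5.42 and 6.75 without HMBA and 1.77, 1.77, 1.47, 4.15 and 2.07 with it, a log2 fold change of -1.52 ± 0.24 (adjusted p = 0.00023). Its arms overlapped through 1 library, number 1 of shNELFE with both compounds. WNT10A, low throughout, read 1.35, 1.43, 1.20 and 2.29 CPM without HMBA and 0.664, 0.964, 0.448, 0.898 and 1.11 with it (log2 fold change -1.02 ± 0.27, adjusted p = 0.0061). Its arms did not overlap, but its call was lost without shNELFE EPZ-5676 number 2 (adjusted p = 0.0504).

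WNT9A, WNT4 and WNT11 rose more than 2-fold. WNT9A (chr1:227918656-227947898) read 16.1, 10.5, 18.3 and 11.6 CPM without HMBA and 33.7, 35.3, 40.1, 38.1 and 35.0 with it, every library with HMBA above every one without (log2 fold change 1.41 ± 0.13, adjusted p = 4.0e-06). WNT4, a ligand of kidney and reproductive tract development, was low in both arms, at 0.45, 0.171, 0.468 and 0.619 CPM against 1.11, 0.482, 1.92, 1.52 and 1.18 (1.47 ± 0.34, adjusted p = 0.0026). The 2 arms of WNT4 overlapped. WNT11, a ligand mostly linked to signalling without β-catenin, had 2, 2, 1 and 1 counts without HMBA and 10, 11, 18, 26 and 7 with it. The ratio of its summed scaled counts was 11.1 (95% exact binomial interval 4.84 to 31.1, counting error only), and the test gave an adjusted p of 0.0004. WNT7B, a β-catenin ligand of epithelia, rose by a smaller 0.62 ± 0.17 on the log2 scale (adjusted p = 0.0074), from 13.4 ± 6.13 (SD, n = 4) to 18.6 ± 6.40 CPM (SD, n = 5), with overlapping arms. WNT2B, WNT3A and WNT7A were not called, with log2 fold changes of 0.43, 0.55 and -0.21.

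Because ligands differ in length, their levels were compared as CPM per kb of merged exons. WNT16 made up 60.4% to 84.5% of the summed ligand level in the 4 libraries without HMBA (median 74.8%) and 2.85% to 9.52% in the 5 with it. WNT9A held 4.35% to 13.5% without HMBA and 48.3% to 60.6% with it, and WNT7B 2.49% to 11.2% and 14.6% to 29.3%. The leading ligand transcript was thus WNT16 in each library without HMBA and WNT9A in each with it. The sum itself was 34.2 to 60.8 CPM per kb without HMBA and 14.5 to 19.7 with it. PORCN, which attaches the lipid to WNT proteins, read 6.37 ± 0.96 and 7.96 ± 1.24 CPM (SD, n = 4 and 5) and was not called. WLS, which carries them to the cell surface, was called higher (log2 fold change 0.59 ± 0.19, adjusted p = 0.018). It read 34.8, 45.1, 32.7 and 44.9 CPM without HMBA and 48.1, 59.7, 42.6, 109.2 and 56.5 with it. Without its highest library, number 1 of shNELFE with both compounds, the log2 fold change was a smaller 0.40 ± 0.07 and was called (adjusted p = 9.7e-05). The call was lost in 4 of 9 fits that each left out a library, those without shNELFE DMSO, shCTL EPZ-5676, shNELFE EPZ-5676 or shCTL HMBA.

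Of 10 tested receptors, 5 rose and 2 fell. FZD4 (chr11:86945679-86955391), the receptor of the retinal vasculature ligand norrin, read 7.26, 8.63, 8.70 and 8.67 CPM without HMBA and 36.5, 33.7, 39.6, 35.9 and 37.1 with it, a log2 fold change of 2.13 ± 0.10 (adjusted p = 4.2e-08). FZD7, a Frizzled active in intestinal stem cells, read 4.05, 4.57, 4.82 and 5.26 against 15.1, 10.5, 19.9, 16.1 and 12.8 (1.64 ± 0.16, adjusted p = 5.3e-06). FZD1 read 6.94, 5.08, 6.69 and 5.57 against 14.8, 13.7, 16.96, 17.1 and 13.6 (1.34 ± 0.12, adjusted p = 4.0e-06). In these 3 receptors no library with HMBA fell into the range of those without. FZD5, the Frizzled of intestinal Paneth cells, also rose, from 14.7 ± 2.46 (SD, n = 4) to 23.7 ± 5.54 CPM (SD, n = 5). FZD9, given after its values were seen, had 4, 3, 3 and 0 counts without HMBA and 12, 7, 13, 18 and 4 with it, a ratio of 4.98 (95% exact binomial interval 2.51 to 10.96, counting error only; adjusted p = 0.0067).

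FZD2 (chr17:44557459-44559570) was the Frizzled that fell, from 5.21, 5.37, 5.35 and 5.26 CPM to 0.96, 1.45, 0.896, 1.18 and 0.813 (-2.32 ± 0.19, adjusted p = 1.7e-06), the 4 libraries without HMBA having an SD of 0.078 CPM. FZD3 and FZD6 were not called, at log2 fold changes of -0.03 and -0.20. Per kb, FZD6 was the most abundant Frizzled in all 9 libraries, with 52.8% to 55.4% of the Frizzled sum without HMBA and 28.8% to 38.8% with it. FZD4 went from 4.8% to 6.4% of that sum to 17.6% to 21.4%, and FZD2 from 12.02% to 13.6% to 1.39% to 2.97%. The Frizzled sum was 18.3 to 20.8 CPM per kb without HMBA and 23.1 to 30.5 with it. Of the co-receptors, LRP6 was not called (log2 fold change 0.01), and LRP5 was called lower by a small margin (-0.31 ± 0.12, adjusted p = 0.043), a call kept in 3 of 9 fits that each left out a library.

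**Figure D2:**
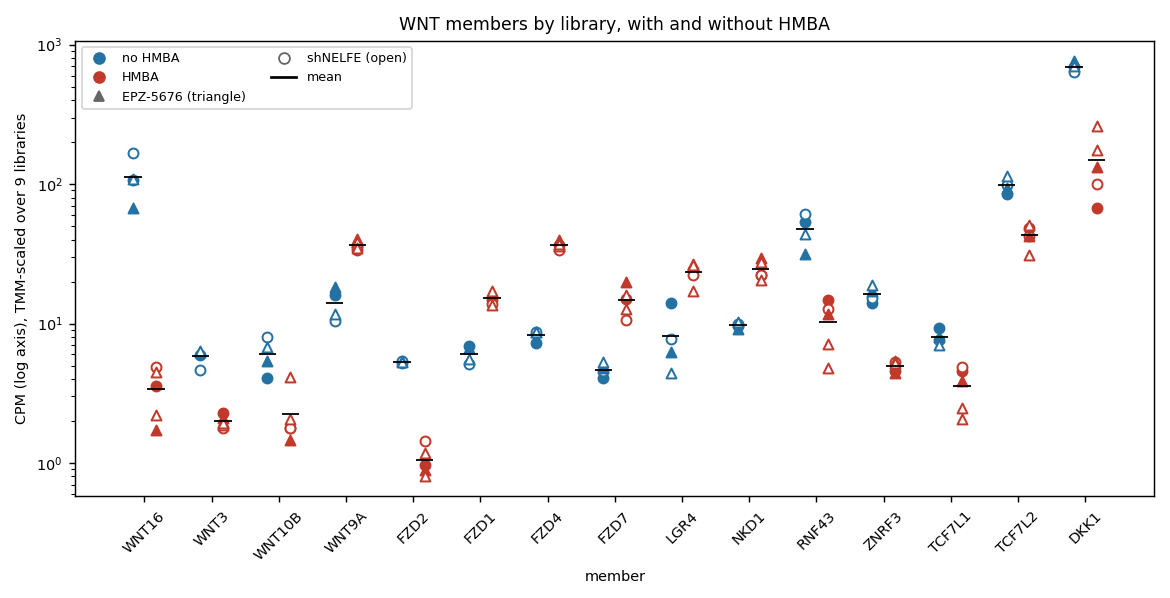
CPM (log axis, TMM-scaled over 9 libraries) of 15 WNT members (x axis) in each library, blue without and red with HMBA; triangles had EPZ-5676, open symbols shNELFE, bars are means. WNT16 and FZD2 lie lower and FZD4 higher in all 5 libraries with HMBA than in the 4 without.

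RNF43 and ZNRF3 are ubiquitin ligases that remove Frizzled receptors from the cell surface and are themselves WNT targets. RNF43 (chr17:58352500-58417595) read 53.7, 60.7, 31.5 and 44.1 CPM without HMBA and 14.8, 12.7, 11.7, 4.77 and 7.17 with it, a log2 fold change of -2.17 ± 0.21 (adjusted p = 5.2e-06). ZNRF3 read 14.1, 15.3, 17.2 and 18.8 against 4.58, 5.30, 4.42, 5.39 and 5.17 (-1.74 ± 0.11, adjusted p = 3.3e-07). In both ligases the arms did not overlap. LGR4, the R-spondin receptor that restrains them, moved the opposite way, from 13.9, 7.77, 6.29 and 4.40 CPM to 24.2, 22.2, 26.9, 17.1 and 26.2 (1.67 ± 0.23, adjusted p = 9.4e-05). Its lowest library with HMBA stood above its highest without.

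DKK1, a secreted inhibitor that binds LRP5 and LRP6, had the highest median level per kb of the members in both arms, at a median of 315 CPM per kb without HMBA and 60.5 with it. In CPM it read 690.1, 637, 758 and 701 CPM without HMBA and 67.7, 101, 134, 261 and 176 with it, with no overlap. The means were 697 ± 49.6 (SD, n = 4) and 148 ± 75.1 (SD, n = 5), a log2 fold change of -2.48 ± 0.23 (adjusted p = 4.9e-06). With HMBA the spread was wide, from shCTL HMBA, the lowest, to number 1 of shNELFE with both compounds, the highest. NKD1, a cytoplasmic inhibitor and target, rose from 9.57, 9.94, 9.17 and 10.21 CPM to 22.3, 22.3, 29.4, 20.5 and 27.5 (1.31 ± 0.13, adjusted p = 6.8e-06), without overlap. NKD2 and NOTUM, the latter an enzyme that removes the lipid of WNT proteins, were not called (both log2 fold changes 0.11).

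Of the 4 factors that act with β-catenin on DNA, 3 fell. TCF7L2 (chr10:112950250-113167678), the most abundant of them per kb, read 84.9, 98.0, 93.3 and 115 CPM without HMBA and 48.1, 42.7, 42.4, 31.0 and 51.1 with it (-1.19 ± 0.15, adjusted p = 3.8e-05). TCF7L1 read 9.25, 7.66, 8.03 and 7.06 against 4.58, 4.90, 3.84, 2.49 and 2.07 (-1.12 ± 0.18, adjusted p = 0.00023). In neither gene did the arms overlap. TCF7 fell by 0.65 on the log2 scale (SE 0.14, adjusted p = 0.0022), from 16.5 ± 1.65 (SD, n = 4) to 10.6 ± 2.29 CPM (SD, n = 5), with overlap, and LEF1, the untested one, reached at most 0.0571 CPM. CTNNB1 rose slightly, from 313 ± 14.7 to 438 ± 19.1 CPM (SD, n = 4 and 5; log2 fold change 0.50 ± 0.07, adjusted p = 0.00016), and AXIN1 fell from 27.8 ± 3.55 to 16.8 ± 3.30 CPM (-0.69 ± 0.09, adjusted p = 5.4e-05).

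AXIN2, the target most used as a readout of β-catenin activity, was not called. It read 3.66, 5.26, 6.02 and 8.73 CPM without HMBA and 6.94, 6.11, 5.89, 4.63 and 8.13 with it, overlapping ranges with a log2 fold change of 0.09 ± 0.23. APC was not called either, at -0.33 ± 0.22. SP5, another direct target, was under the filter: it read 0.386, 0.286, 0.669 and 0.619 CPM without HMBA and 0.0738, 0.161, 0.192, 0 and 0 with it, at or under 3 counts in each library with HMBA. AXIN2 and SP5 were singled out after their values were seen. The tested genes taken as targets therefore did not share a direction: RNF43, ZNRF3 and DKK1 were lower, NKD1 higher, and AXIN2 and NOTUM not called. SP5, untested in the main fit, was called lower by edgeR with no filter (log2 fold change -2.42, adjusted p = 0.0047), at few counts.

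Some ligand genes are neighbours on a chromosome, and in each such pair 1 gene stayed at or under 1.04 CPM in the 9 libraries. WNT3 and WNT9B lie 0.05 kb apart on chromosome 17, WNT10B and WNT1 6.69 kb apart on 12, WNT6 and WNT10A 6.13 kb apart on 2, and WNT9A and WNT3A 59.2 kb apart on 1. These gaps run between the outermost gene ends in GENCODE. RefSeq's promoter windows of WNT3 and WNT9B lie further apart, at chr17:46818643-46818942 and chr17:46851333-46851632. WNT9B reached 0.0691 CPM and WNT1 none in the 9 libraries, while WNT3 and WNT10B were called lower with HMBA. WNT3A stayed between 0.222 and 0.898 CPM, while WNT9A rose to 36.4 ± 2.61 (SD, n = 5).

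Other genes of the pathway, from lists of 5 R-spondins and relatives, 15 inhibitors, 14 alternative receptors and polarity genes, 19 cytoplasmic transducers, 13 nuclear partners and 19 further gut targets, also went both ways with HMBA. None of the R-spondin list passed the filter, and of 3 tested inhibitors TRABD2A fell (log2 fold change -1.23). Of 13 tested alternative receptor and polarity genes 2 rose and 5 fell, led by VANGL1 (-0.85), a planar polarity protein, and RYK (-0.69), a WNT-binding receptor. Of 19 cytoplasmic transducers 5 rose and 8 fell; the largest changes were in AMER1 (-2.72), a scaffold of the destruction complex, DACT3 (2.01), APC2 (1.32) and DVL1 (-1.18), a Dishevelled protein. Of 12 tested nuclear partners 3 rose and 4 fell, among them BCL9L (-1.54), a β-catenin coactivator, PYGO1 (-1.16), CTBP2 (-1.02) and CTBP1 (-0.83). Of 13 tested gut targets 6 rose and 5 fell: EPHB3, an ephrin receptor of the crypt, rose by 4.40 and FGF18 by 4.34 on the log2 scale, BAMBI by 2.77, and MYC fell by 3.98. The shares called in these lists ran from 33.3% to 84.6%, around the 63% of all genes.

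Markers of other cell types moved with HMBA as well. The summed level of 12 mesenchymal markers was 15.9 to 35.6 CPM without HMBA and 41.9 to 59.8 with it, mostly COL1A1, with LUM at 0 in all 9 libraries. Of the 5 mesenchymal markers tested, 3 were called higher with HMBA and 1 lower, where 31% and 32% of all genes were. The 3 endothelial markers summed to 1.71 to 2.88 and 9.16 to 13.4 CPM, mostly PECAM1, and the 3 squamous markers to 0 to 0.268 and 0.884 to 1.85. The 5 leukocyte markers, none of which passed the filter, summed to 0.171 to 0.335 CPM without HMBA and 0.512 to 1.11 with it. The 10 epithelial markers summed to 4456 to 5967 and 4647 to 7859. Of the 7 epithelial markers tested, 1 was called higher with HMBA and 2 lower. Mitochondrial genes took 6.12% to 6.90% of counts in the 4 libraries without HMBA and 8.87% to 12.2% in the 5 with it, highest in number 1 of shNELFE with both compounds. The part of these markers and of the mitochondrial share in the HMBA results was not tested. On all 16 libraries, which include the 9, no member was called for HMBA by edgeR (5 at an unadjusted p under 0.05). On the 8 numbered 1, which include number 1 of shNELFE with both compounds, none was called either (0 at an unadjusted p under 0.05). Of the 26, 10 turned direction there, among them WNT3, WNT4, WNT10B, WNT11, FZD4, FZD7, TCF7L2 and DKK1. WNT16 and WNT10A, also among the 26, had no fit on those 8.

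shNELFE changed few members. Of 37 tested, 4 passed an adjusted p of 0.05, where 2.37% of all genes did, 0.764% higher and 1.6% lower: WNT16 was higher, and WNT7B, FZD5 and AXIN1 were lower. Each moved the same way in 4 of 4 pairs of libraries numbered 2, which are among the libraries that gave the calls and are no separate support. WNT7B, WNT7A, FZD5, FZD6, AXIN1 and WLS are given in full here after their values were seen. WNT7B (chr22:45920362-45977129) read 17.9, 19.4, 26.0 and 23.5 CPM with shCTL under DMSO, EPZ-5676, HMBA and both, and 7.66, 8.61, 13.8 and 10.7 with shNELFE. The added library, number 1 of shNELFE with both compounds, read 18.9, closer to the shCTL library of that treatment. The log2 fold change was -0.97 ± 0.16 (SE, adjusted p = 0.014). WNT7A, its paralog, showed a similar pattern, at 2.89, 2.88, 1.62 and 2.24 CPM against 0.914, 0.867, 0.804 and 0.813, with 1.73 in the added library, and did not pass (-1.23 ± 0.29, adjusted p = 0.055).

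WNT16 stood at 107, 67.3, 3.54 and 1.73 CPM with shCTL and 168, 109.6, 4.90 and 2.22 with shNELFE, 4.49 in the added library, a log2 fold change of 0.68 ± 0.15 (adjusted p = 0.046). FZD5 read 16.2, 17.3, 26.6 and 32.0 CPM with shCTL and 13.4, 11.95, 18.8 and 21.7 with shNELFE, 19.5 in the added library (-0.49 ± 0.10, adjusted p = 0.033). AXIN1, the scaffold of the destruction complex, read 29.9, 31.7, 20.1 and 20.7 against 24.7, 24.8, 14.7 and 14.6, and 14.0 in the added library (-0.41 ± 0.09, adjusted p = 0.04). In each of these 3 genes the shRNA arms overlapped across treatments. A treatment holds a single library numbered 2 per shRNA, and within each gene these differed in the same direction under all 4 treatments. FZD6 read 46.2, 45.8, 43.2 and 44.0 CPM with shCTL against 42.1, 39.3, 36.3 and 34.9 with shNELFE, and 27.2 in the added library. Its arms did not overlap, which was not counted over all genes, and it was not called (-0.30 ± 0.10, edgeR adjusted p = 0.15). Without the added library its log2 fold change of -0.23 ± 0.07 was called (adjusted p = 0.038). WLS was higher in 4 of 4 pairs (34.8 to 45.1, 32.7 to 44.9, 48.1 to 59.7 and 42.6 to 56.5 CPM) and not called (0.57 ± 0.19, adjusted p = 0.13).

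**Figure D3:**
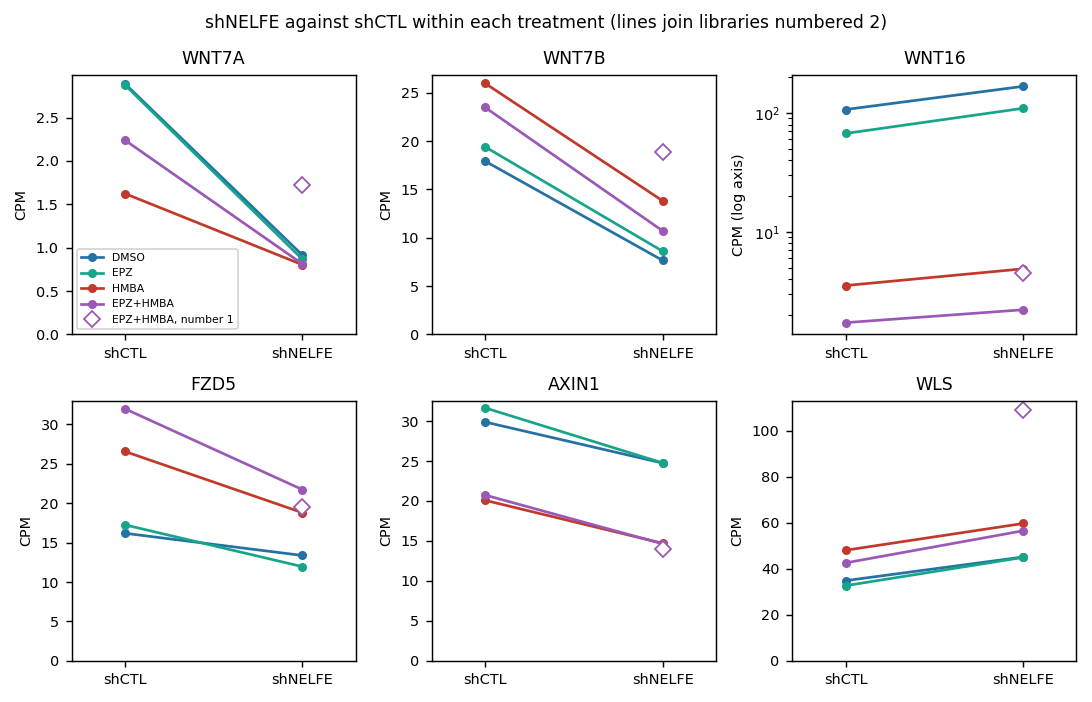
CPM (y axes, TMM-scaled, log axis for WNT16) of 6 members with shCTL and shNELFE; each line joins the libraries numbered 2 of 1 treatment, and the open diamond is number 1 of shNELFE with both compounds. Lines for WNT7A, WNT7B, FZD5 and AXIN1 fall and those for WNT16 and WLS rise under all 4 treatments.

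The count depended on which libraries entered. In the 8 libraries numbered 2 alone, 7 members were called for shNELFE, against 13.1% of all genes: WNT16 and WLS higher, and WNT7A, WNT7B, FZD5, FZD6 and AXIN1 lower. In fits that left out 1 library the count ran from 0 to 7, and the shares of all genes called in those fits are not given. The count was 0 without any 1 of shNELFE DMSO and the 4 libraries with a single compound. On all 16 libraries it was 0; FZD2, WNT3 and SP5, none of them among the 4, had an unadjusted p under 0.05, and the log2 fold change of WNT7B was 0.05, its sign turned. Of the further pathway lists only CCND1, a cell cycle target, was called for shNELFE (log2 fold change 0.52, adjusted p = 0.031).

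For EPZ-5676 edgeR called none of the 37 members, where 0.201% of all genes were called. At an unadjusted p under 0.05 there were 7: WNT3A (log2 fold change 1.00), WNT4 (1.00), DKK1 (0.66) and NKD2 (0.33) above 0, and RNF43 (-0.69), WNT16 (-0.67) and TCF7L1 (-0.43) below it, the smallest adjusted p being 0.116. Here and elsewhere the share of all genes under an unadjusted p of 0.05 is not given, so such counts are no result about the members. WNT16 was lower with EPZ-5676 in 4 of 4 pairs, at 67.3 against 107 CPM in shCTL without HMBA and 109.6 against 168 in shNELFE. It was the 1 member called by DESeq2, limma-voom called 0, and WNT16 and RNF43 were called in the 8 libraries numbered 2 alone. Intervals of single members were wide at this number of libraries, with SE up to 0.58 on the log2 scale.

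No member passed in a product term, which asks whether 1 factor alters the response to another; of all genes, 0.0134% were called for shRNA by HMBA and 0% for the other 2. For shRNA by HMBA, 5 members had an unadjusted p under 0.05, among them RNF43 (log2 -0.97 ± 0.30) and DKK1 (0.85 ± 0.38), both at an adjusted p of 0.88. For EPZ-5676 by HMBA there were 3: LGR4 (1.07 ± 0.33), DKK1 (0.99 ± 0.35) and TCF7 (-0.61 ± 0.23). For shRNA by EPZ-5676 there were 0. DESeq2 and limma-voom called no member in any product term.

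The 1 group with both of its libraries among the 9, shNELFE with EPZ-5676 and HMBA, shows how far replicates differed. Over 37 members the median absolute log2 difference between its libraries was 0.415, with 17 over 0.5 and 5 over 1, from -0.93 for APC to 2.07 for FZD9. For the members called with shNELFE, the 2 libraries differed by 1.02 in WNT16 and 0.82 in WNT7B, number 1 being higher, and by -0.16 in FZD5 and -0.07 in AXIN1. The replicate difference of WNT16 thus exceeded its shNELFE log2 fold change of 0.68, that of WNT7B came near the size of its -0.97, and those of FZD5 and AXIN1 were smaller than theirs. Among members with HMBA changes of over 2 on the log2 scale, the replicate difference was 0.57 in DKK1, 0.53 in FZD2, -0.59 in RNF43 and -0.05 in FZD4. It was larger in WNT16, at 1.02 against an HMBA change of -5.05, and in WNT11, at 1.80 against 3.29. In FZD9 the replicate difference of 2.07 came near its HMBA change of 2.30.

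**Figure D4:**
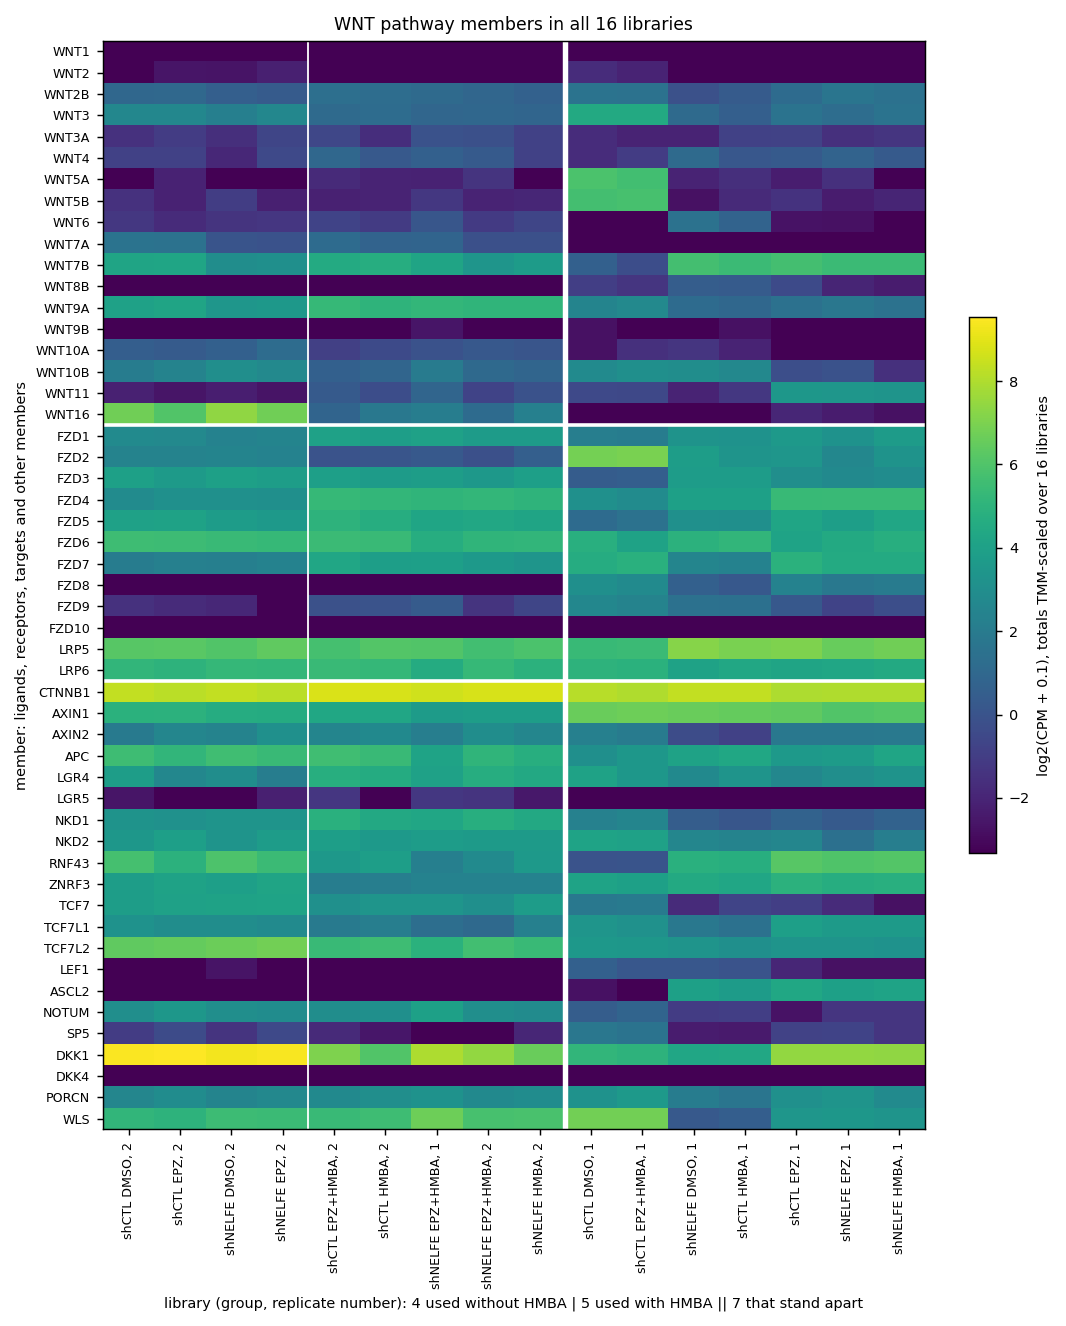
Log2(CPM + 0.1), TMM-scaled over 16 libraries, of all 51 members (y axis, in 3 subsets) in every library (x axis). The thin line splits 4 libraries without from 5 with HMBA, and the thick line sets off the 7 that stand apart, in which WNT16 is dark and ASCL2 is bright in 5.

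In the 7 libraries that stand apart, the pathway genes had other levels. WNT16 was at most 0.162 CPM, WNT7A had no count, TCF7L2 was at 8.48 to 11.5 CPM and AXIN1 at 66.5 to 102, outside the ranges of the 9 (29.6 to 113 and 13.4 to 31.0 on the same scaling). Within the 7, shCTL DMSO and shCTL with both compounds were alike and unlike the other 5. They held WNT5A at 59.8 and 49.9, WNT5B at 51.7 and 56.1, FZD2 at 115 and 124 and WLS at 111 and 113 CPM, while RNF43 was at 0.881 and 0.928. In the other 5, WNT5A was at most 0.247, WNT7B 42.7 to 52.5, ASCL2 13.4 to 20.0 and RNF43 26.9 to 72.6 CPM. WNT11 then separated both libraries with EPZ-5676 alone and shNELFE HMBA, at 10.1 to 10.9 CPM, from the remaining 2, shNELFE DMSO and shCTL HMBA, at 0.146 and 0.328. Labels with and without HMBA thus fell on both sides of each of these contrasts. WNT1, FZD10 and DKK4 had no count in any of the 16 libraries.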

How the data were processed

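The authors deposited raw counts of reads per gene for 16 libraries, made per the labels' protocols from poly(A) RNA with a stranded kit. The build is hg38, and the submitters' processing notes name HTSeq 0.6.1p1, STAR 2.4.0b, edgeR and Cufflinks 2.1.1. Their roles, the annotation release and the strand setting count as not given in the sources used here, so reads of overlapping or antisense genes cannot be told apart. Samples were grouped by their titles. Of 60676 identifiers, 60357 matched a symbol and 319 did not; 0 pairs of libraries were identical.

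The 51 members, the other lists and the 9 libraries were chosen with earlier results of these data known. From the deposited counts, edgeR 4.0.16 (R 4.3.3, limma 3.58.1) fitted HMBA, shRNA and EPZ-5676 as additive terms on 9 libraries with TMM scaling, filterByExpr (minimum count 10), a quasi-likelihood F-test and Benjamini-Hochberg adjustment at 0.05 over 14912 genes, with 5 residual degrees of freedom. Product terms were added each alone, leaving 4. A library stood apart when its r (log2 CPM, prior count 2) was below 0.9 with all libraries numbered 2. Values in every library are given for members past 0.05 with an absolute log2 fold change of at least 1 and an average of 1 CPM or more in the higher arm, 18 in all; others so given are named as chosen after their values were seen. WLS with HMBA is one of these. Alternatives were RLE scaling, unscaled totals, no filter, DESeq2 1.42.0, limma-voom, group means, leaving out each library, other sets of libraries, and a replicate block. The code was tested on simulated counts. Limits of 3 counts and intervals cover counting error only.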

Additional observations from a re-analysis of the deposited data

Results flagged for a closer look

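In the 7 libraries numbered 1 that the comparisons do not use, 5 members had a signal although they were under 3 counts in each of the 9 libraries used. ASCL2, a transcription factor of intestinal stem cells, reached 20.0 CPM there, and FZD8, a Frizzled receptor, 8.35 CPM. LEF1 reached 1.45, WNT8B 1.27 and WNT2 0.207 CPM. No group holds more than 2 libraries, too few to look for a library far from the others of its group.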

How the results depend on the processing

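The calls depend on which libraries enter. The share of all genes called moved with the setting as well and is not set beside the counts here. These counts therefore describe the fits and are no result about the members. For HMBA, 26 members were called, 23 to 26 when each library was left out, and 24 to 27 under other scaling, filters, tools and group means, but 0 on all 16 libraries and 0 on the 8 numbered 1. With the replicate block on all 16 libraries it was 0 for each effect. Deviations from group means of the libraries numbered 1 correlated at r = 0.065 to 0.96, over 0.1 in 24 of 28 pairs. Of 16 libraries, 15 lay closest to one of the same number, so libraries largely grouped by number. For shNELFE the 4 calls became 7 in the 8 libraries numbered 2, 1 with group means, 0 on all 16, 0 on the 8 numbered 1, and 0 to 7 when each library was left out. For EPZ-5676 the count of 0 became 3 with no filter, 1 with DESeq2, 2 in the 8 numbered 2, and 0 to 2 when each library was left out. For shRNA by HMBA it became 1 with no filter (DKK1). On the 8 libraries numbered 1 the HMBA log2 fold changes turned for WNT3 (0.068), WNT4 (-0.15), WNT10B (0.68), WNT11 (-0.78), FZD4 (-0.037), FZD7 (-0.053), TCF7L2 (0.38) and DKK1 (0.092), and the shNELFE ones for WNT7B (0.62) and FZD5 (1.00). On all 16, those of WNT7B (0.054) and FZD5 (0.023) turned, and with the replicate block those of WNT10A for HMBA (0.13) and FZD5 for shNELFE (0.20). WNT16 and WNT10A had no fit on the 8 numbered 1. The cause of these turns was not tested. A count of 3 limits what can be said of the 14 untested members.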
